A study of Mus musculus with 22 samples.

Results

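Mouse embryos from Setd2 maternal knockouts that were still labelled as 1-cell embryos at 48 h were compared with control embryos labelled as 2-cell embryos at the same time. The comparison covers every gene that reached 1 FPKM (mapped fragments, scaled to transcript length and to library size) in at least 2 of these 4 libraries, which were 11049 of the 22592 gene symbols in the table. There were 2 knockout libraries (genotype Setd2_KO, stage 1C) and 2 control libraries (genotype Setd2_Con, stage 2C). The females were 8 weeks old and had been given the hormones PMSG and hCG, and the RNA of the embryos was turned into Smart-seq2 libraries, a method that copies whole polyadenylated transcripts from very few cells. The protocol gives 47 h after hCG for late 2-cell embryos and 30 h for zygotes, while the sample titles give 48 h. The zygote libraries of both genotypes, 2 each, and the full-grown oocyte libraries, 2 each, sit in the same table and are used below as earlier stages.

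The Cre driver, the genotype of the males and the number of embryos per library are not given in the sources used here. Nothing says that the libraries of a group came from separate animals or collections, so the spread behind each p-value is that between libraries and may be technical. The groups differ in cell stage as well as genotype, so an effect of the genotype and an effect of the stage cannot be told apart in any value below. Fewer embryos carrying a transcript and less of that transcript in each embryo cannot be told apart either.

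SETD2 is the histone methyltransferase that places the trimethyl mark on lysine 36 of histone H3 over transcribed genes, and in oocytes that mark covers much of the genome. A mouse egg stops transcription when it is fully grown and carries a store of maternal mRNA into the embryo. That store is degraded in waves from meiotic maturation to the 2-cell stage, by deadenylation through the CCR4-NOT complex among other routes. The embryonic genome is switched on weakly in the zygote and strongly in the late 2-cell embryo, where genes for the ribosome, the nucleolus and RNA processing are among the first large groups to be transcribed. The 2-cell stage also has a short-lived set of transcripts, such as the Zscan4 genes and genes next to endogenous retroviruses, which are known for marking it.

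The 2 libraries of a group ranked the members closely alike, and both knockout libraries were estimated to be deeper than both controls. About 4.80 and 4.90 M fragments in the knockout libraries, against 3.36 and 3.90 M in the controls, were estimated from the smallest steps between the FPKM values of long single-transcript genes. At that depth 1 fragment in a transcript of 2000 nt is worth between 0.102 and 0.149 FPKM. The number of genes at 1 FPKM or more was 9768 and 10140 in the knockout libraries, against 9299 and 9183 in the controls. The 10 most abundant genes held 10.9% and 9.10% of the summed FPKM of the knockout libraries, against 9.14% and 9.09% in the controls. FPKM values are shares of a library, so a high value of one gene lowers the others. In limma, on log2(FPKM + 1) with all 12 libraries of the table, the change of the median tested gene was 0.43 log2 units. All changes below are knockout minus control on that scale and relative to the median tested gene, unless the sentence says otherwise. Adding 1 FPKM shrinks the change of genes with low values. The adjusted p is the Benjamini-Hochberg value over 12199 tested genes from the fit before that shift, and a gene is called when it is below 0.05. Every gene named as higher or lower was called unless its p is printed as a miss. An exact permutation test of 2 libraries against 2 cannot go below 0.333 two-sided, so single genes rest on the limma fit, which shares its spread across genes. Replicates carry their label numbers, library 1 and then library 2, wherever 2 values are given.

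Setd2 itself was low in both knockout libraries. It had 1.42 and 1.74 FPKM in the knockout embryos, against 53.2 and 43 FPKM in the controls. In zygotes it had 1.30 and 1.73 FPKM in the knockout, against 12.1 and 8.85 FPKM in the controls. The groups were separate at both times, and the control level was several times higher at 48 h than in zygotes. The relative change at 48 h was -4.68 ± 0.25 (SE, n = 2 per group, limma adjusted p = 7.44e-08).

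Most genes differed between the 2 groups. Of the 11049 members, 4870 were called higher in the knockout libraries and 3692 lower, 8562 in all, where 73.8% of all tested genes were called (43.2% higher and 30.6% lower). At least 2-fold above the median gene and called were 3362 members, beside 27.7% of all tested genes. At least 2-fold below it and called were 3664 members, beside 30.3% of all tested genes. These shares, 27.7% higher and 30.3% lower, are the background for every list count below. At a 4-fold limit the counts were 1633 higher and 2227 lower, and at a 16-fold limit they were 273 higher and 494 lower. The knockout libraries both lay above both controls for 5571 members and both below them for 4302. The libraries of the 2 groups overlapped for 1176. The counts at the 4-fold and 16-fold limits and those of separate or overlapping libraries cover all 11049 members. None of them was made over all tested genes, so nothing is read from them. The split between higher and lower calls moved with the scaling. As deposited, 56.9% of the members' calls were higher, against 46.6% after median-ratio rescaling and 51.1% after quantile normalization, which left the median tested gene at 0.03 and 0.15 log2 units. A gene that entered only through the group in which it was high had to differ, so nothing is read from the counts of separate groups. At 1 FPKM or more in both knockout libraries and neither control were 1665 members, and 1142 members showed the opposite pattern, while 6949 reached that level in all 4 libraries.

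**Figure D1:**
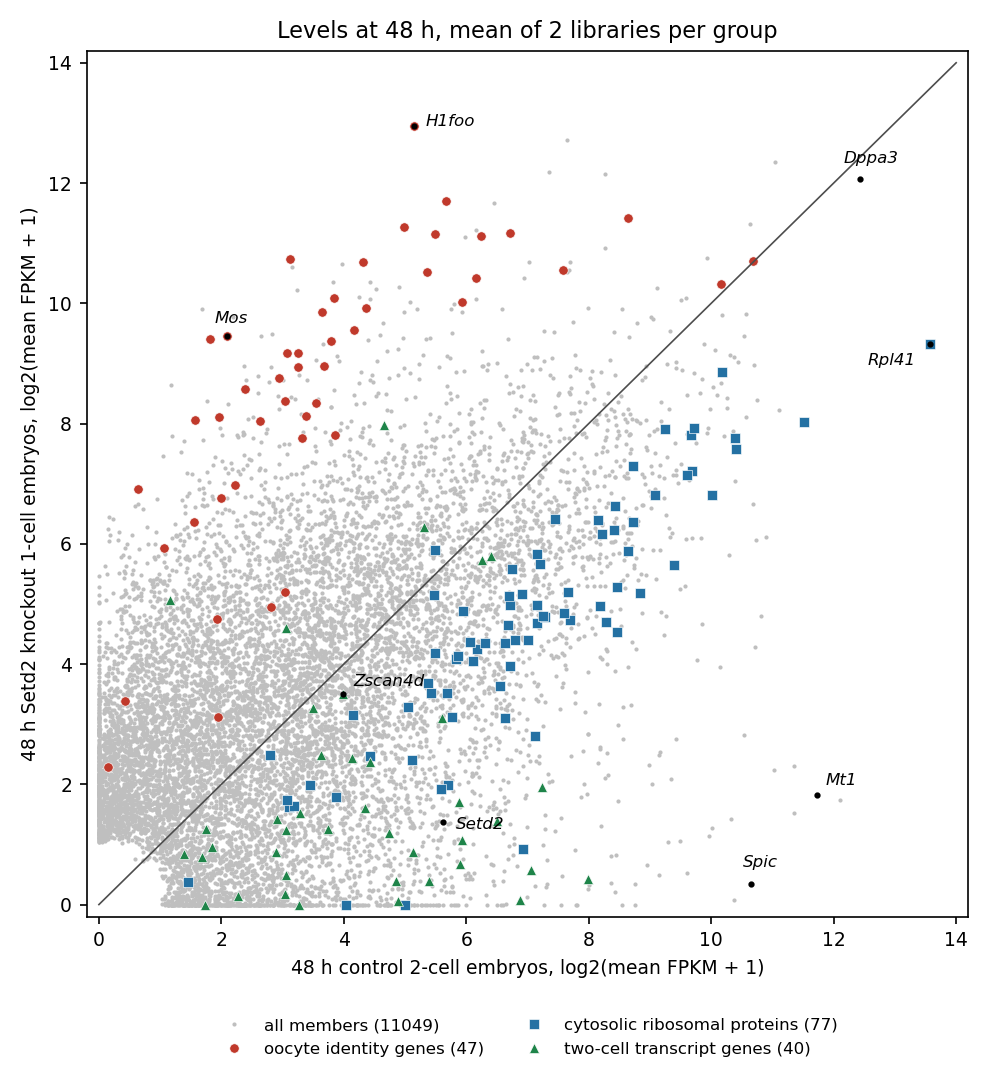
Level of each of the 11049 members at 48 h, as log2 of the mean FPKM + 1, in control 2-cell embryos (horizontal) and Setd2 knockout 1-cell embryos (vertical), with 2 libraries per mean and the line of equal levels. Red oocyte identity genes lie mostly above the line, blue cytosolic ribosomal protein genes mostly below it, and green two-cell transcript genes mostly below it, while Dppa3 is high in both.

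The most abundant transcripts of the knockout embryos included many that are known from the egg. The 10 most abundant were H1foo, Zbed3, Ubb, Tcl1, Dppa3, Ldhb, Bcl2l10, Spin1, Gdf9 and Zp3. Among those of the control embryos were Rpl41, Dppa3, Mt1, Mt2, Prps1, Taf9, Gcsh, Ubb and Znhit3. The 100 most abundant genes of each group shared 17. Dppa3 protects the maternal genome from demethylation and is a known maternal transcript. It had 4616 and 3939 FPKM in the knockout libraries, against 5408 and 5659 FPKM in the controls. Both groups were close there, and the relative change of -0.81 was not called (limma adjusted p = 0.0921). After median-ratio rescaling and after quantile normalization Dppa3 was called lower. Ubb, a polyubiquitin gene, had 6018 and 4472 FPKM in the knockout libraries, against 1963 and 2247 FPKM in the controls, and its call (limma adjusted p = 0.00398) was lost after median-ratio rescaling and without the first control library.

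The 48 h knockout libraries ranked the members like zygote and oocyte libraries. Across the members, Spearman's rho of the 2 knockout libraries with each other was 0.963, and with the knockout zygotes it ranged from 0.949 to 0.971. It was 0.843 to 0.882 with control zygotes, 0.945 to 0.951 with knockout oocytes and 0.923 to 0.926 with control oocytes. With the 48 h controls it was 0.420 to 0.449. The 2 control libraries of 48 h had a rho of 0.970 with each other and of 0.355 to 0.432 with the 4 zygote libraries. These are correlations across genes, which are not independent replicates, and they describe the libraries only. The members were admitted by their 48 h values. Among them, 1665 reached 1 FPKM in both knockout libraries and neither control, and 1142 showed the opposite. The rho between the 48 h groups may be lower for that reason, which was not tested. The 1150 tested genes that are not members were left out.

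**Figure D2:**
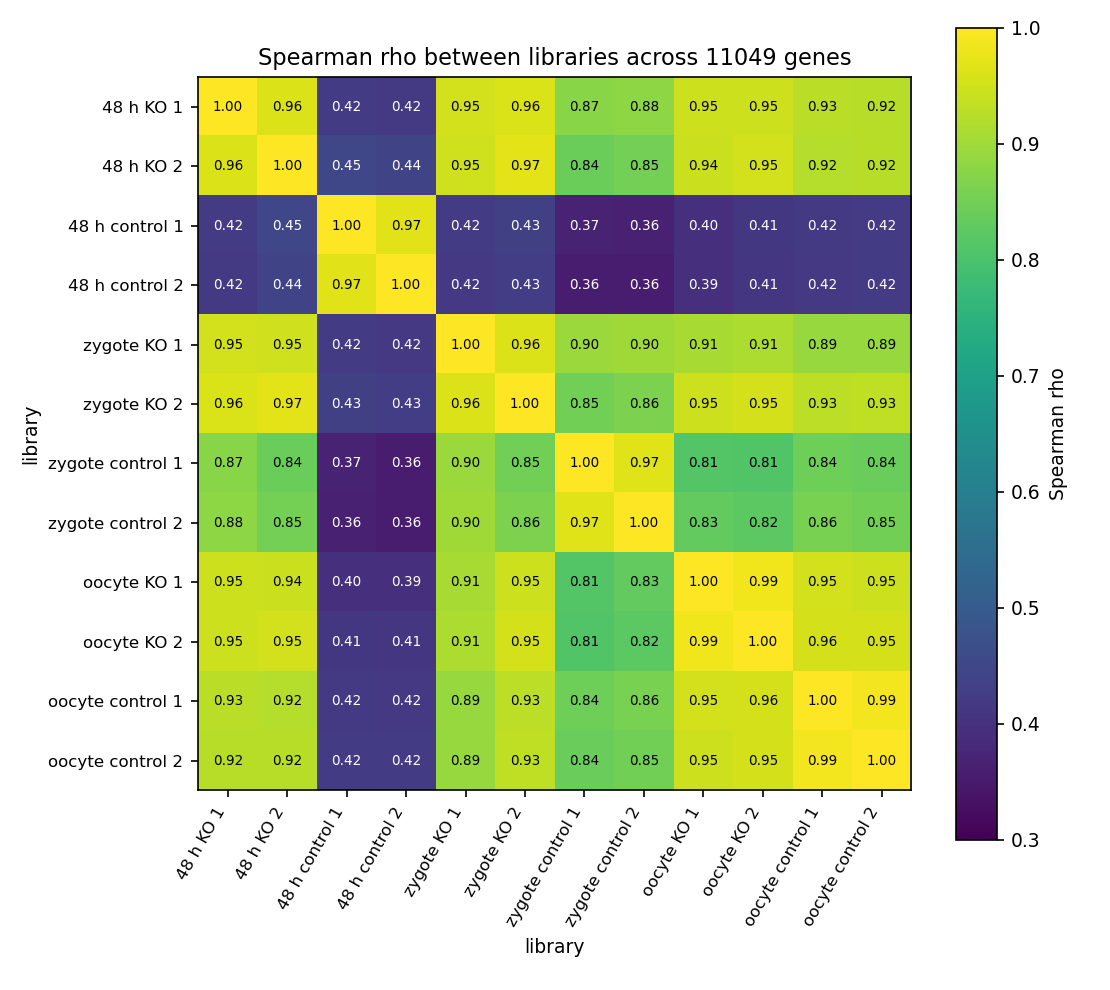
Spearman's rho between each pair of the 12 libraries, over the 11049 members, with libraries ordered by stage and genotype on both axes. The members were admitted by their 48 h values. The 48 h knockout libraries form one block with the oocyte and zygote libraries, and the 48 h control libraries stand apart, with values of 0.355 to 0.449 against every library outside their own pair.

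Oocyte identity genes were the group with the highest median change. Of 47 members in this list, 44 were at least 2-fold higher in the knockout embryos and 0 at least 2-fold lower. The median change was 4.84, where the median of all tested genes is 0. H1foo, the linker histone of the oocyte, had 9084 and 6660.0 FPKM in the knockout libraries, against 36 and 32.5 FPKM in the controls. Its relative change was 7.36 ± 0.22 (SE, limma adjusted p = 1.13e-09). In zygotes H1foo averaged 8439 FPKM in the knockout, against 2510.2 FPKM in the controls, so the 48 h knockout libraries were near the zygote level of their own genotype. Mos, a kinase of the MAP kinase pathway that keeps the egg in its second meiotic metaphase, had 651 and 758 FPKM in the knockout libraries, against 3.11 and 3.42 FPKM in the controls. In zygotes Mos averaged 859 FPKM in the knockout, against 36.9 FPKM in the controls, and the zygote change of 4.52 was also called. Oas1e, an oocyte-expressed member of the oligoadenylate synthetase family, had 977 and 871 FPKM in the knockout libraries, against 11.2 and 11.9 FPKM in the controls. Gdf9, an oocyte growth factor that acts on granulosa cells, had 2552 and 2406 FPKM in the knockout libraries, against 30.7 and 30.5 FPKM in the controls.

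The genes of the zona pellucida, the coat that the growing oocyte lays down, were among them. Zp3, a glycoprotein of the coat, had 2627 and 1997 FPKM in the knockout libraries, against 98.7 and 108 FPKM in the controls, a relative change of 4.03 (limma adjusted p = 3.36e-07). Zp1, Zp2 and the transcription factor genes Nobox and Figla lie outside the naming rule and were chosen after their values were seen. Zp1 had 480.5 and 502 FPKM in the knockout libraries, against 8.84 and 8.25 FPKM in the controls. Zp2 had 410.3 and 254 FPKM in the knockout libraries, against 6.92 and 7.47 FPKM in the controls. All 3 coat genes were thus higher in both knockout libraries than in either control. Nobox, a homeobox factor of the oocyte programme, had 412 and 345 FPKM in the knockout libraries, against 4.25 and 4.20 FPKM in the controls. Figla, the basic helix-loop-helix factor needed for zona gene transcription, had 56.9 and 63.1 FPKM in the knockout libraries, against 0.497 and 1.70 FPKM in the controls.

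The promoters of 3 oocyte genes that were higher in the knockout libraries are shown because zona genes are textbook targets of FIGLA through E-boxes (CANNTG, the same on both strands). They are the 250 bases before the RefSeq transcription start on GRCm38.p6, given 5′ to 3′ on the gene's strand, with every E-box in capitals. Zp3 is at chr5:135979855-135980104 on the plus strand, Rfpl4 at chr7:5116912-5117161 on the minus strand and Zar1 at chr5:72581085-72581334 on the minus strand.
Zp3: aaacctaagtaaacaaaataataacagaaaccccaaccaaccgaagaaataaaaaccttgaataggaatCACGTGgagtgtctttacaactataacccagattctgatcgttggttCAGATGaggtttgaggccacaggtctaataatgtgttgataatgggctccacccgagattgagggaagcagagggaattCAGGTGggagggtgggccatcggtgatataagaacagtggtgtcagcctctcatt
Rfpl4: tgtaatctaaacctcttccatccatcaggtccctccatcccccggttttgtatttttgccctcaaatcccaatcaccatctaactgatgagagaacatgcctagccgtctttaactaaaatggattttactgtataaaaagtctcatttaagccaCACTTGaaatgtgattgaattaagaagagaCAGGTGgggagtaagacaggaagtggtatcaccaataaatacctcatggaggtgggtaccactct
Zar1: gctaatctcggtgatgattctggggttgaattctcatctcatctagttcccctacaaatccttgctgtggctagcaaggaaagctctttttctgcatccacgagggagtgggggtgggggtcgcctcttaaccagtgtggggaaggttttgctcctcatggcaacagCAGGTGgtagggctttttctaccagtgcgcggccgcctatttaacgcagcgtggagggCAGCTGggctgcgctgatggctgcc
The 3 windows hold 3, 2 and 2 E-boxes in that order. At least 1 is held by 66.0% of 27025 RefSeq promoter windows of this length and by 57.2% of the 8663 members that have a window. A match describes these letters and is not a binding site.

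The largest single rises included other transcripts known from the oocyte. Plat, which encodes tissue plasminogen activator and is stored untranslated in the growing oocyte, had 1013 and 742 FPKM in the knockout libraries, against 2.73 and 4.37 FPKM in the controls. Gja4, the connexin of the oocyte-granulosa gap junction, had 536 and 815 FPKM in the knockout libraries, against 2.80 and 2.23 FPKM in the controls. Pabpn1l, an oocyte and early embryo poly(A)-binding protein gene, had 349.9 and 447 FPKM in the knockout libraries, against 1.76 and 0.754 FPKM in the controls. Each was below 5 FPKM in both controls and far above that in both knockout libraries. In zygotes Pabpn1l averaged 121 FPKM in the knockout and 54.8 FPKM in the controls. Zar1, named for zygote arrest, had 1833 and 1261 FPKM in the knockout libraries, against 7.59 and 8.29 FPKM in the controls. Its zygote levels averaged 1348 FPKM in the knockout and 914 FPKM in the controls, and the zygote change of 0.61 was not called (limma adjusted p = 0.156). Rfpl4, a ring finger protein gene of the oocyte, had 1620.1 and 1682 FPKM in the knockout libraries, against 20.6 and 17 FPKM in the controls. Glrx, a glutaredoxin, had 717 and 678 FPKM in the knockout libraries, against 4.43 and 6.11 FPKM in the controls. The other genes among the 15 largest rises were Obox1, Obox2, Cpsf4l, Fam46c, Fbxw20, Fbxw13 and Tspan3, with relative changes of 5.93 to 6.55. Fbxw20 and Fbxw13 belong to a family of near-identical oocyte F-box genes, and reads may have been split among its copies.

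Maternal effect genes, whose products the embryo needs from the egg, mostly stood high with them. Of 41 members, 31 were at least 2-fold higher and 5 at least 2-fold lower, with a median change of 2.85. Nlrp4f, of the NLRP family that includes parts of the subcortical maternal complex, had 346 and 333 FPKM in the knockout libraries, against 9.07 and 7.34 FPKM in the controls. Nlrp4a had 159 and 147 FPKM in the knockout libraries, against 5.08 and 5.27 FPKM in the controls. The Nlrp4 genes are close copies, so their separate values are uncertain. Nlrp5, also known as Mater, was chosen after its values were seen and had 349 and 269.9 FPKM in the knockout libraries, against 12.9 and 12.8 FPKM in the controls. The 5 members that were lower include Smarca4, the BRG1 remodeller, Pms2, a mismatch repair gene, and Eif2c2, which encodes Argonaute 2. Smarca4 had 3.63 and 2.14 FPKM in the knockout libraries, against 31.6 and 27.6 FPKM in the controls. Pms2 had 3.82 and 4.86 FPKM in the knockout libraries, against 26.5 and 22.8 FPKM in the controls. Both were below both controls, unlike the NLRP genes. Without the second knockout library, 3 members of this list were at least 2-fold lower.

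Genes of maternal RNA storage and decay had members on both sides, as all tested genes did. Of 46 members, 17 were at least 2-fold higher and 13 at least 2-fold lower (37% and 28.3%, beside 27.7% and 30.3% of all tested genes), with a median change of 0.26. Among the higher ones, Btg4, the adaptor that brings the CCR4-NOT deadenylase to maternal mRNA, had 2169 and 2283 FPKM in the knockout libraries, against 83.6 and 66.2 FPKM in the controls. Btg4 averaged 2430.3 FPKM in knockout zygotes and 3359.8 FPKM in control zygotes, where it was not called (limma adjusted p = 0.0973). Cpeb1, which holds maternal mRNAs with short tails untranslated, had 269 and 209 FPKM in the knockout libraries, against 6.79 and 4.65 FPKM in the controls. Dcp1a, a part of the decapping complex, had 91.4 and 97.9 FPKM in the knockout libraries, against 6.90 and 5.73 FPKM in the controls. All 3 were far above both controls. Among the lower ones, Cnot1, the scaffold of CCR4-NOT, had 6.20 and 5.87 FPKM in the knockout libraries, against 24.1 and 26.6 FPKM in the controls. Ythdf2, a reader of N6-methyladenosine that promotes decay, had 45.8 and 50.4 FPKM in the knockout libraries, against 188 and 184 FPKM in the controls. Cnot8, a deadenylase subunit, had a relative change of -1.71, while its paralogue Cnot7, chosen after its values were seen, had one of 1.73.

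The deepest falls came from transcripts that were abundant in 2-cell controls and lay near 0 in the knockout embryos. Spic, an ETS-family transcription factor, had 0.545 and 0 FPKM in the knockout libraries, against 1461 and 1744 FPKM in the controls. Crxos1, a homeobox gene, had 0 and 0.0975 FPKM in the knockout libraries, against 1283 and 1359 FPKM in the controls. Their relative changes of -10.76 and -10.73 were the 2 most negative of the named genes. Prps1, which makes the phosphoribosyl pyrophosphate of nucleotide synthesis, had 1.63 and 6.28 FPKM in the knockout libraries, against 2499 and 2715 FPKM in the controls. Gcsh, the carrier protein of the glycine cleavage system, had 2.72 and 4.66 FPKM in the knockout libraries, against 1953 and 2235 FPKM in the controls. Nme2, a nucleoside diphosphate kinase, had 0.442 and 2.37 FPKM in the knockout libraries, against 1023 and 1045 FPKM in the controls. In zygotes of either genotype these 5 genes averaged below 3 FPKM, so only the 48 h controls were high. Cd63, a tetraspanin of late endosomes, and Npl, a sialic acid lyase, were listed at 0 in both knockout libraries. Cd63 had 367 and 495 FPKM in the controls. Npl had 359 and 382 FPKM in the controls. Trim43a had 0 and 0.809 FPKM in the knockout libraries, against 589 and 545 FPKM in the controls, and its copy Trim43b shares most of its sequence. The remaining genes among the 15 deepest falls were Tomm5, Obox6, Alppl2, Timd2, Mt1 and Mt2, with relative changes of -10.34 to -8.84.

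**Figure D3:**
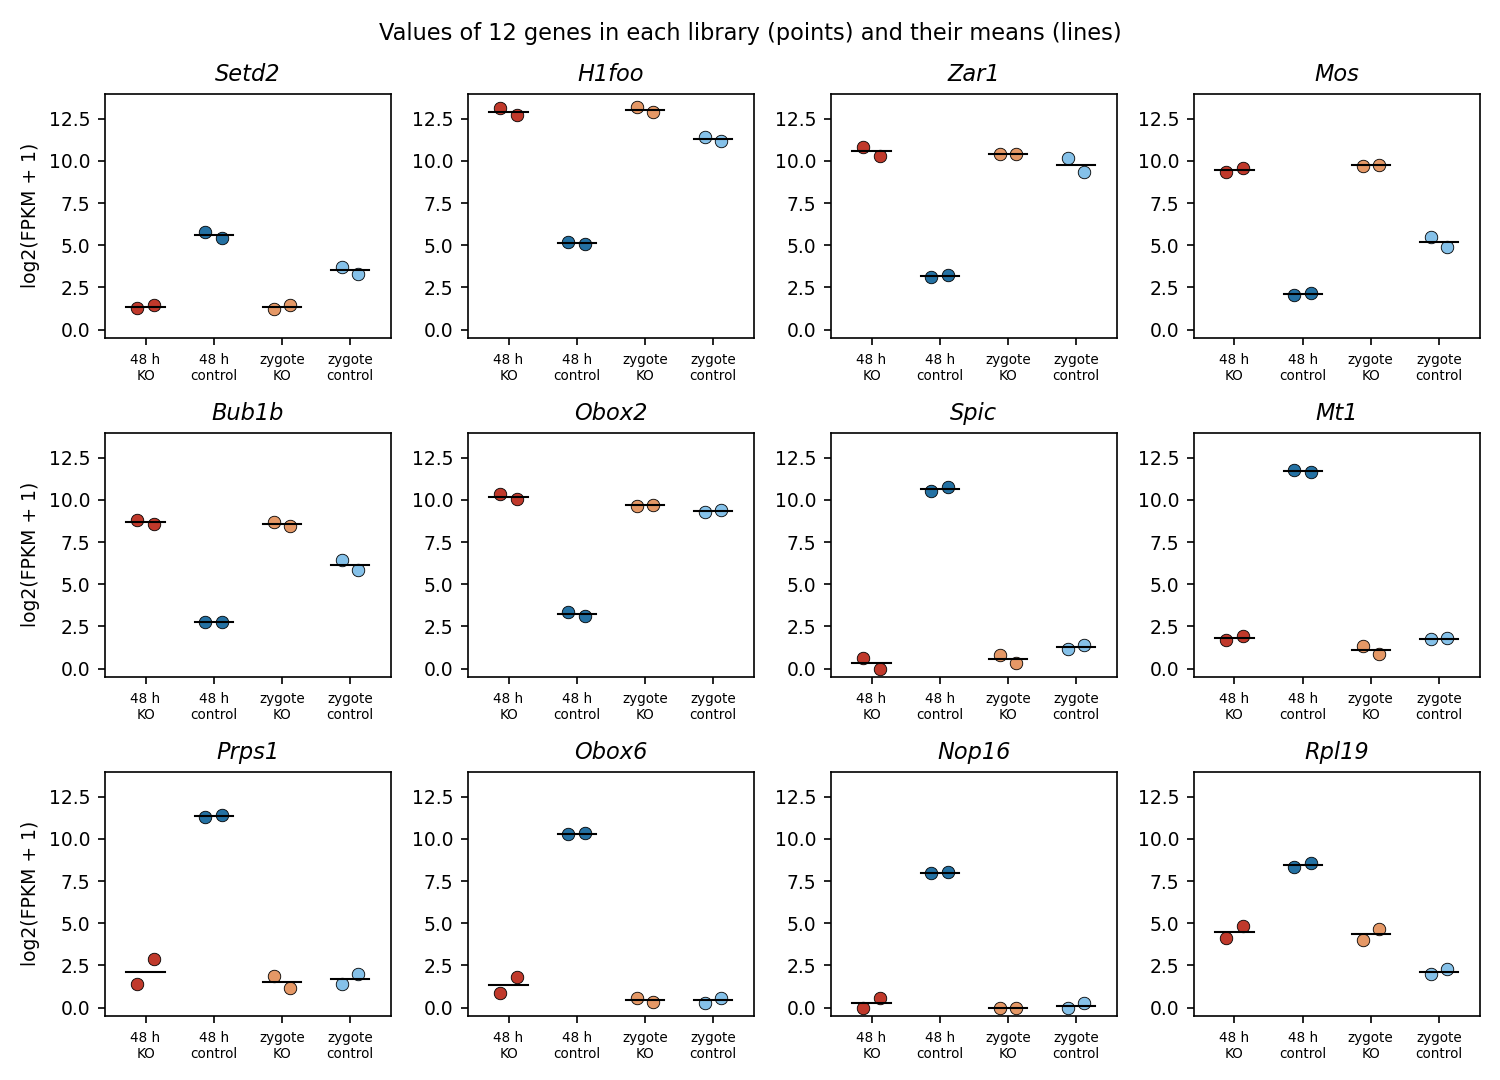
FPKM (log2 of FPKM + 1) of 12 genes in the knockout and control libraries of 48 h and of zygotes, 1 panel per gene, with points for libraries and lines for the mean of 2. H1foo, Zar1, Mos, Bub1b and Obox2 are lowest in the 48 h controls, and Spic, Mt1, Prps1, Obox6 and Nop16 are high only there.

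Mt1 and Mt2 encode metallothioneins, small proteins that bind zinc and copper and are induced by metals through metal response elements. Mt1 had 2.28 and 2.78 FPKM in the knockout libraries, against 3502 and 3285 FPKM in the controls, a relative change of -10.34 ± 0.37 (SE, limma adjusted p = 4.22e-09). Mt2 had 1.64 and 2.14 FPKM in the knockout libraries, against 2572 and 2675 FPKM in the controls, a relative change of -10.26 ± 0.23 (SE, limma adjusted p = 5.68e-10). The genes are neighbours on mouse chromosome 8 and moved together. Their RefSeq promoters are shown because the pair ranks among the most abundant transcripts of the controls and is below 3 FPKM in the knockout libraries. Each sequence is the 250 bases before the start on GRCm38.p6, plus strand, at chr8:94178839-94179088 for Mt1 and chr8:94172368-94172617 for Mt2. Capitals mark the core of the metal response element, TGCACNC or TGCGCNC on either strand.
Mt1: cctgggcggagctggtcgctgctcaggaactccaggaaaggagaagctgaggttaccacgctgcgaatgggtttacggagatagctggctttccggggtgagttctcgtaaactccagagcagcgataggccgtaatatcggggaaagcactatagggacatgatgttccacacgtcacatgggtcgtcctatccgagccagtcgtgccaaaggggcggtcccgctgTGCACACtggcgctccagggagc
Mt2: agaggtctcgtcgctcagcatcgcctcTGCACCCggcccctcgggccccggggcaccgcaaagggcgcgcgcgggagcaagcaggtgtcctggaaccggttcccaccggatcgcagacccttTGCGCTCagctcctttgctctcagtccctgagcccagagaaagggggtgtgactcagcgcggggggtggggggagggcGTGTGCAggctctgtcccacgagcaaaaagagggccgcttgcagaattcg
The Mt1 window holds 1 such core and the Mt2 window 3. At least 1 is held by 21.3% of the 27025 promoter windows and by 29.9% of the 8663 members that have a window. The letters are a description and say nothing on whether a factor was bound.

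Transcripts that mark the 2-cell stage were low in the knockout embryos. Of 40 members of this list, 30 were at least 2-fold lower and 3 at least 2-fold higher, with a median change of -2.50. Pramel7, a gene of the PRAME family, had 0.116 and 0.569 FPKM in the knockout libraries, against 263 and 245 FPKM in the controls. Calcoco2, an autophagy receptor, had 0 and 0.103 FPKM in the knockout libraries, against 111 and 123 FPKM in the controls. Tdpoz4, from a cluster of near-identical TD-POZ genes, had 0.212 and 0.415 FPKM in the knockout libraries, against 29.2 and 26.5 FPKM in the controls. All 3 were below 1 FPKM in both knockout libraries. The 3 that were higher were Zfp750, Arg2 and Cml2. Zfp750, a zinc finger gene, had 35.8 and 29.1 FPKM in the knockout libraries, against 1.91 and 0.545 FPKM in the controls. Arg2, mitochondrial arginase, had 245 and 256 FPKM in the knockout libraries, against 30.8 and 17.6 FPKM in the controls. In zygotes Arg2 averaged 168 FPKM in the knockout and 176 FPKM in the controls, so it was present before the 2-cell stage. Zfp750 averaged 38.6 FPKM in knockout zygotes and 98 FPKM in control zygotes.

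The 2 knockout libraries differed for several genes of this list. The values that follow for Zscan4 genes, Zfp352 and Usp17lb were chosen after they were seen, and the Zscan4 and Usp17l genes are families of near-identical copies. Zscan4d had 3.88 and 16.7 FPKM in the knockout libraries, against 16.6 and 13.2 FPKM in the controls. The groups overlapped, and the relative change of -1.20 was not called (limma adjusted p = 0.192). Zscan4c had 1.31 and 7.91 FPKM in the knockout libraries, against 13.1 and 9.72 FPKM in the controls, and was called lower (limma adjusted p = 0.0225). Zscan4f had 1.79 and 6.99 FPKM in the knockout libraries, against 18.9 and 14.3 FPKM in the controls. Library 2 of the knockout was above library 1 for all 6 genes from Zscan4a to Zscan4f, by a median of 1.67 log2 units. Zfp352, another early embryonic zinc finger gene, had 0.188 and 4.31 FPKM in the knockout libraries, against 65.4 and 50.8 FPKM in the controls. Usp17lb, a deubiquitinase, had 0.481 and 5.25 FPKM in the knockout libraries, against 176 and 123 FPKM in the controls. For these 2 genes both knockout libraries stayed far below both controls. Over the whole list knockout library 2 was above library 1 in 32 of 40 members (80.0%), beside 55.4% of the 11049 members, and by a median of 0.38 log2 units. In the control pair library 2 was above library 1 in 4 of the 40 (10%), beside 48.6% of the 11049 members.

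Homeobox genes of the Obox cluster, expressed in oocytes and early embryos, differed in direction. Obox2 had 1329.9 and 1045 FPKM in the knockout libraries, against 9.26 and 7.52 FPKM in the controls. Obox1 had 1613 and 1606 FPKM in the knockout libraries, against 15.8 and 13.7 FPKM in the controls. Obox5 had 1198 and 1260.2 FPKM in the knockout libraries, against 33.6 and 24.1 FPKM in the controls. These 3 had relative changes of 4.95 to 6.55. Obox6 had 0.852 and 2.50 FPKM in the knockout libraries, against 1274 and 1285 FPKM in the controls. Obox3 had 0.551 and 1.21 FPKM in the knockout libraries, against 232 and 203 FPKM in the controls. Both were lower, with relative changes of -9.41 and -7.31. The cluster holds near copies, so the share of reads given to each is uncertain. In the list of pluripotency and first lineage genes that holds them, 20 of 37 members were at least 2-fold lower and 8 at least 2-fold higher, with a median change of -2.11. Klf5, a factor of the early blastomeres, and Pou5f1, which encodes OCT4, were chosen after their values were seen. Klf5 had 0 and 0.124 FPKM in the knockout libraries, against 15.4 and 14.3 FPKM in the controls. Pou5f1 had 32.8 and 22.1 FPKM in the knockout libraries, against 3.50 and 3.91 FPKM in the controls, which is the opposite direction.

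Genes of the cytosolic ribosome had the lowest median change of the lists. Of 77 ribosomal protein members, 73 were at least 2-fold lower and none was higher, with a median change of -2.61. Their FPKM summed to 3626 and 5969 in the knockout libraries, against 32193 and 34648 in the controls. Rpl41, of the large subunit, had 374 and 908 FPKM in the knockout libraries, against 11820.3 and 12449 FPKM in the controls. Rpl19 had 16.2 and 28 FPKM in the knockout libraries, against 323 and 384 FPKM in the controls. Every one of these knockout values lay below both of its controls. Rps23, of the small subunit, had 1.28 and 0.535 FPKM in the knockout libraries, against 113 and 127 FPKM in the controls. Rpl9 was listed at 0 in both knockout libraries, against 32.3 and 29.9 FPKM in the controls. Listed at 0 were 3 and 2 ribosomal protein members in the knockout libraries, and 0 in either control, and such a 0 may be a failed estimate. In zygotes the direction was the reverse for Rpl41, which averaged 487 FPKM in the knockout and 21 FPKM in the controls. The ribosomal protein genes have many processed pseudogenes that can share their reads. Within the knockout pair library 2 was above library 1 for 67 of the 77 (87.0%), beside 55.4% of the 11049 members. Within the control pair it was above for 81.8%, beside 48.6% of the members.

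Genes of the nucleolus and of ribosome assembly followed. Of 70 members, 57 were at least 2-fold lower and 1 was higher, with a median change of -2.45. Nop16, a nucleolar assembly factor, had 0 and 0.493 FPKM in the knockout libraries, against 249.8 and 259 FPKM in the controls. Utp23, of the small subunit processome, had 0.640 and 1.39 FPKM in the knockout libraries, against 106 and 110.3 FPKM in the controls. Rrn3, the initiation factor of RNA polymerase I, had 19 and 22.2 FPKM in the knockout libraries, against 217 and 241 FPKM in the controls. The median member stood at 18.1 and 21.2 FPKM in the knockout libraries, against 80.2 and 82.3 FPKM in the controls. The 1 that was at least 2-fold higher was Riok1, an atypical kinase of small subunit maturation. Riok1 had 176 and 149 FPKM in the knockout libraries, against 23.2 and 25.8 FPKM in the controls.

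**Figure D4:**
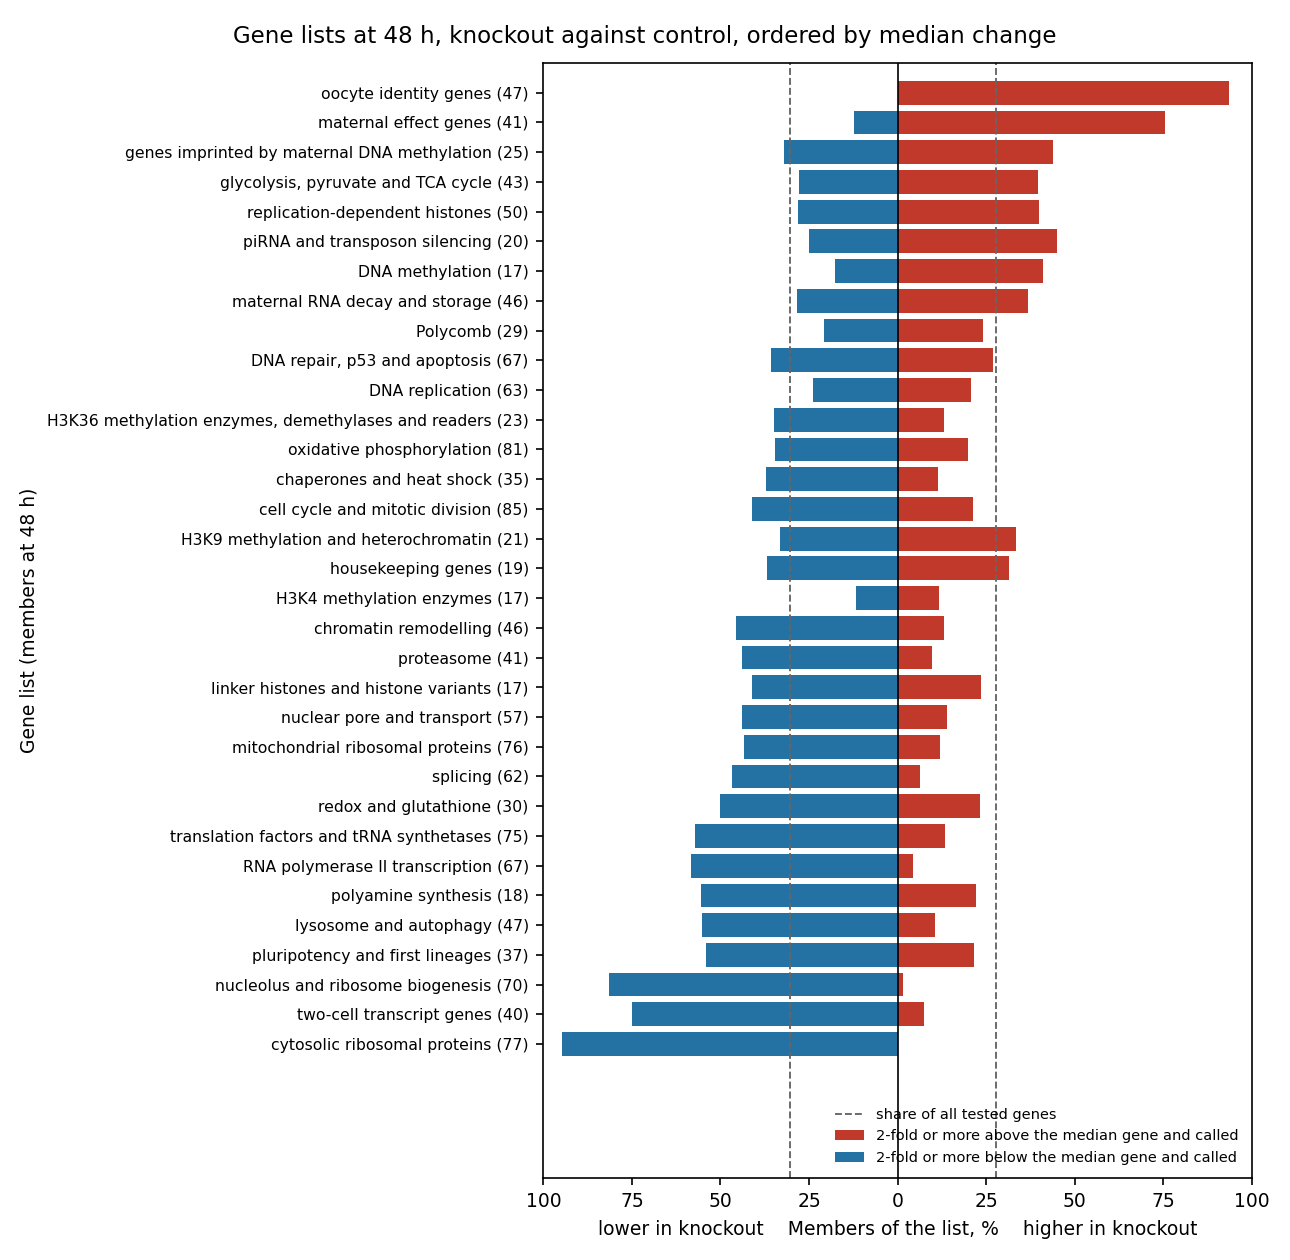
Share of the members of each of 33 gene lists that were called and at least 2-fold higher (right, red) or lower (left, blue) in 48 h knockout embryos than in controls, relative to the median gene, ordered by the median change. Dashed lines mark the share of all tested genes, 27.7% higher and 30.3% lower. Oocyte identity and maternal effect genes head the plot, and ribosomal protein, two-cell and nucleolar genes are at its foot.

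The machinery of transcription was also lower in the main. Of 67 members of the RNA polymerase II list, 39 were at least 2-fold lower and 3 higher, with a median change of -1.31. Without the second knockout library, 5 were at least 2-fold higher. Polr2f, a small subunit shared by the nuclear polymerases, had 85.8 and 114 FPKM in the knockout libraries, against 1605 and 1692 FPKM in the controls. Polr2h, another shared subunit, had 9.47 and 19.4 FPKM in the knockout libraries, against 398 and 398 FPKM in the controls. Taf9, of the TFIID and SAGA complexes, had 309 and 288 FPKM in the knockout libraries, against 2095 and 2338 FPKM in the controls. Both shared subunits were thus far below the controls, Polr2h more so. The higher 3 were Gtf2b, which encodes TFIIB, Med17 and Taf3. Gtf2b had 754 and 619 FPKM in the knockout libraries, against 37.7 and 45.6 FPKM in the controls. Gtf2b averaged 610.1 FPKM in knockout zygotes and 436 FPKM in control zygotes.

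Splicing, nuclear transport and translation genes were lower more often than higher. Of 62 splicing members, 29 were at least 2-fold lower and 4 higher (median -1.08). Srsf1, a serine-arginine splicing factor, had 3.59 and 4.94 FPKM in the knockout libraries, against 70.3 and 59.7 FPKM in the controls. Of 57 nuclear pore and transport members, 25 were at least 2-fold lower and 8 higher (median -0.94). Importin alpha genes went opposite ways. Kpna7, the importin alpha of the oocyte, had 270.2 and 214 FPKM in the knockout libraries, against 1.35 and 4.51 FPKM in the controls. Kpna1, a somatic importin alpha, had 0.202 and 0.494 FPKM in the knockout libraries, against 71.2 and 54.4 FPKM in the controls. Of 75 translation factors and tRNA synthetases, 43 were at least 2-fold lower and 10 higher (median -1.30). Poly(A)-binding protein genes also went opposite ways. Pabpc1l, the egg form, had 49.9 and 34.7 FPKM in the knockout libraries, against 1.28 and 0.597 FPKM in the controls. Pabpc1, the somatic form, had 3.61 and 4.98 FPKM in the knockout libraries, against 109.8 and 101.4 FPKM in the controls. Eif4e1b, the oocyte form of the cap-binding protein, had 85.9 and 118 FPKM in the knockout libraries, against 6.21 and 4.0 FPKM in the controls. Eif3a, a subunit of the initiation factor eIF3, had 7.90 and 8.37 FPKM in the knockout libraries, against 87.5 and 81.3 FPKM in the controls.

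Cell cycle genes also had members on both sides. Of 85 members, 18 were at least 2-fold higher and 35 lower (21.2% and 41.2%, beside 27.7% and 30.3% of all tested genes), with a median change of -0.46. Bub1b, the spindle checkpoint kinase BUBR1, had 440.1 and 384 FPKM in the knockout libraries, against 5.82 and 5.87 FPKM in the controls. Wee2, the oocyte kinase that inhibits CDK1, had 245 and 202 FPKM in the knockout libraries, against 12.9 and 14.1 FPKM in the controls. Nuf2, of the outer kinetochore, had 139 and 111 FPKM in the knockout libraries, against 5.78 and 4.73 FPKM in the controls. These are also known as abundant transcripts of the egg. Ccne1, which encodes cyclin E1 of S phase entry, had 14.9 and 17.1 FPKM in the knockout libraries, against 263 and 329 FPKM in the controls. Ncapd2, a condensin subunit, had 0.134 and 0.613 FPKM in the knockout libraries, against 17.1 and 14.3 FPKM in the controls. Cdk1, chosen after its values were seen, encodes the kinase of mitotic entry and had 40.9 and 43.3 FPKM in the knockout libraries, against 244 and 248 FPKM in the controls. Its cyclin partner Ccnb1, chosen likewise, had 1014 and 912 FPKM in the knockout libraries, against 373 and 374 FPKM in the controls. The kinase was thus lower and the cyclin higher in the knockout libraries.

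DNA replication genes had shares near the background. Of 63 members, 13 were at least 2-fold higher and 15 lower (20.6% and 23.8%, beside 27.7% and 30.3% of all tested genes). The median change was -0.15, or 0.07 with a pseudocount of 5. Orc5, of the origin recognition complex, had 434 and 295 FPKM in the knockout libraries, against 24.3 and 21 FPKM in the controls. Top2a, topoisomerase II alpha, had 5.47 and 5.83 FPKM in the knockout libraries, against 75.5 and 59.4 FPKM in the controls. Rrm2, of ribonucleotide reductase, had 52.3 and 44.2 FPKM in the knockout libraries, against 232 and 239 FPKM in the controls. Of 67 DNA repair, p53 and apoptosis members, 18 were at least 2-fold higher and 24 lower (26.9% and 35.8%). Their median change of 0.01 changed sign under 6 other settings, to -0.15 after median-ratio rescaling. The checkpoint kinases stood on opposite sides. Chek1 had 165 and 152 FPKM in the knockout libraries, against 15.4 and 11.5 FPKM in the controls. Chek2 had 1.13 and 0.462 FPKM in the knockout libraries, against 52.3 and 50.4 FPKM in the controls. Neil3, a DNA glycosylase, had 237 and 129.9 FPKM in the knockout libraries, against 1.21 and 1.85 FPKM in the controls. Among apoptosis genes, Bid, a BH3-only gene, had 0 and 0.335 FPKM in the knockout libraries, against 43.4 and 29.6 FPKM in the controls. Mcl1, an anti-apoptotic BCL2 relative, had 2.17 and 1.95 FPKM in the knockout libraries, against 39.3 and 45.4 FPKM in the controls. Bcl2l10, the BCL2 relative of the oocyte, had 3759 and 2886 FPKM in the knockout libraries, against 58 and 42.2 FPKM in the controls. So the 2 BCL2 relatives differed in direction. Cdkn1a, the p21 target of p53 and chosen after its values were seen, had 0.452 and 1.11 FPKM in the knockout libraries, against 21.2 and 15.3 FPKM in the controls.

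Among enzymes and readers of H3K36 methylation, the pathway of the deleted gene, differences other than Setd2 were of both signs. Of 23 members, Setd2 included, 8 were at least 2-fold lower and 3 higher (34.8% and 13.0%, beside 30.3% and 27.7% of all tested genes). The median change was -0.20. With a pseudocount of 5, 4 were at least 2-fold lower. Kdm4c, a demethylase of H3K9 and H3K36, had 0.0483 and 0.0946 FPKM in the knockout libraries, against 23.1 and 26.7 FPKM in the controls. Mtf2, a Polycomb-associated protein with a Tudor domain, had 23.8 and 30.9 FPKM in the knockout libraries, against 217 and 209.8 FPKM in the controls. Kdm2b, a demethylase with a CxxC domain, had 32.6 and 30.7 FPKM in the knockout libraries, against 15.5 and 13.6 FPKM in the controls, and its call was lost after median-ratio rescaling. Nsd1, another H3K36 methyltransferase chosen after its values were seen, had 8.68 and 8.28 FPKM in the knockout libraries, against 5.10 and 4.55 FPKM in the controls, a relative change of only 0.27.

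H3K4 methylation enzymes had few large differences apart from demethylases. Of 17 members, 2 were at least 2-fold higher and 2 lower (11.8% each, beside 27.7% and 30.3% of all tested genes). The lower count was 8 after median-ratio rescaling, 5 after quantile normalization and 4 with the replicate number as a block. Kdm5b, which removes H3K4 trimethylation at genome activation, had 0.602 and 0.774 FPKM in the knockout libraries, against 107 and 96.3 FPKM in the controls. Kdm5a had 0.331 and 0.303 FPKM in the knockout libraries, against 13 and 13.3 FPKM in the controls. Kdm1b, the demethylase that oocytes need to set imprints, had 40.8 and 44.5 FPKM in the knockout libraries, against 5.28 and 3.72 FPKM in the controls. The Kdm5 pair was lower and Kdm1b higher. Of 17 DNA methylation members, 7 were at least 2-fold higher and 3 lower (41.2% and 17.6%, median 0.38). Tet3, the oxidase of the paternal genome, had 47.9 and 50.6 FPKM in the knockout libraries, against 2.35 and 2.50 FPKM in the controls. Tet1 had 0.980 and 0.397 FPKM in the knockout libraries, against 6.72 and 5.39 FPKM in the controls. Dnmt1, the maintenance methyltransferase, had 89.6 and 88.7 FPKM in the knockout libraries, against 7.89 and 7.59 FPKM in the controls. Zfp57, which guards imprints, had 1587 and 1705 FPKM in the knockout libraries, against 138 and 119 FPKM in the controls. Its cofactor gene Trim28 had 62.7 and 35.7 FPKM in the knockout libraries, against 100.5 and 98.9 FPKM in the controls. Its call (limma adjusted p = 0.033) was lost without either control library or the second knockout library.

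Other chromatin lists held differences of both signs, as all tested genes did (27.7% higher and 30.3% lower). Of 29 Polycomb members, 7 were at least 2-fold higher and 6 lower (24.1% and 20.7%). Their median change was 0.11, or -0.02 after median-ratio rescaling. Suz12, a core subunit of PRC2, had 24.4 and 16.5 FPKM in the knockout libraries, against 99.3 and 95.2 FPKM in the controls. Rbbp7, a histone chaperone subunit of PRC2 and other complexes, had 1648 and 1301 FPKM in the knockout libraries, against 193 and 205 FPKM in the controls. Of 21 H3K9 methylation and heterochromatin members, 7 were at least 2-fold higher and 7 lower (33.3% each). Among HP1 genes, Cbx1 had 123 and 90.4 FPKM in the knockout libraries, against 19 and 10.8 FPKM in the controls. Cbx3 had 4.14 and 9.65 FPKM in the knockout libraries, against 331 and 378 FPKM in the controls. HP1 beta was thus higher and HP1 gamma lower. Of 46 remodelling members, 21 were at least 2-fold lower and 6 higher (45.7% and 13.0%, median -0.58). Hdac1, a class I histone deacetylase, had 0.218 and 0.107 FPKM in the knockout libraries, against 52.9 and 51.9 FPKM in the controls. Chd1, a remodeller that binds methylated H3K4, had 2.20 and 3.42 FPKM in the knockout libraries, against 27.2 and 28 FPKM in the controls.

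Histone genes differed in both directions, by copy. Of 50 replication-dependent histone members, 20 were at least 2-fold higher and 14 lower (40% and 28%, median 0.57). All tested genes stood at 27.7% higher and 30.3% lower. Hist1h2bc had 167 and 158 FPKM in the knockout libraries, against 22.1 and 22 FPKM in the controls, and Hist1h2bc was higher in knockout zygotes as well, by 3.05. Hist1h2ah had 3.79 and 3.23 FPKM in the knockout libraries, against 157 and 163 FPKM in the controls. Hist1h2ab had 0.923 and 1.36 FPKM in the knockout libraries, against 56.5 and 57.5 FPKM in the controls. The copies are near identical, and most of their mRNA lacks a poly(A) tail, so these values are uncertain. Of 17 linker histone and variant members, 4 were at least 2-fold higher and 7 lower (23.5% and 41.2%). H2afz, which encodes H2A.Z, had 65.9 and 81.5 FPKM in the knockout libraries, against 335 and 373 FPKM in the controls. Cenpa, the centromeric histone, had 41.3 and 89 FPKM in the knockout libraries, against 341 and 345 FPKM in the controls. Slbp, the stem-loop binding protein of histone mRNA, had 1586 and 1709 FPKM in the knockout libraries, against 188 and 222 FPKM in the controls.

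Mitochondrial and metabolic lists had members on both sides, as all tested genes did (27.7% higher and 30.3% lower). Of 76 mitochondrial ribosomal protein members, 33 were at least 2-fold lower and 9 higher (43.4% and 11.8%, median -0.96). Mrps6 had 58.8 and 45.1 FPKM in the knockout libraries, against 382 and 379 FPKM in the controls. Mrps36 had 98.9 and 77.4 FPKM in the knockout libraries, against 4.85 and 5.55 FPKM in the controls. Of 81 oxidative phosphorylation members, 28 were at least 2-fold lower and 16 higher (34.6% and 19.8%, median -0.36). Without the second control library 17 were at least 2-fold lower. Cox8a, of cytochrome c oxidase, had 349.6 and 332 FPKM in the knockout libraries, against 1172 and 1281 FPKM in the controls. Sdha, the flavoprotein of complex II, had 28.2 and 31.7 FPKM in the knockout libraries, against 2.60 and 2.76 FPKM in the controls. Cox6a2, another cytochrome c oxidase gene, had 25.8 and 32.2 FPKM in the knockout libraries, against 0.606 and 0 FPKM in the controls. So oxidase genes lay on both sides. Of 43 glycolysis, pyruvate and TCA cycle members, 17 were at least 2-fold higher and 12 lower (39.5% and 27.9%, median 0.68). Ldhb, the lactate dehydrogenase subunit of the oocyte, had 3680.0 and 2821 FPKM in the knockout libraries, against 83.4 and 89.5 FPKM in the controls. Mpc1, of the mitochondrial pyruvate carrier, had 12.2 and 13.7 FPKM in the knockout libraries, against 165 and 184 FPKM in the controls. Idh2, a mitochondrial isocitrate dehydrogenase, had 0.258 and 0.126 FPKM in the knockout libraries, against 25.5 and 31.4 FPKM in the controls.

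Among redox genes, 15 of 30 members were at least 2-fold lower and 7 higher (50% and 23.3%, median -1.16). All tested genes stood at 30.3% lower and 27.7% higher. Prdx4, the peroxiredoxin of the endoplasmic reticulum, had 1.25 and 2.20 FPKM in the knockout libraries, against 170.2 and 199.8 FPKM in the controls. Prdx1, a cytosolic one, had 628 and 469.8 FPKM in the knockout libraries, against 149 and 123 FPKM in the controls. These 2 peroxiredoxins went opposite ways. Of 18 polyamine synthesis members, 10 were at least 2-fold lower and 4 higher (55.6% and 22.2%, median -1.41). Sat1, the acetyltransferase that sets polyamine turnover, had 20.2 and 28.5 FPKM in the knockout libraries, against 803 and 1038 FPKM in the controls. Of 47 lysosome and autophagy members, 26 were at least 2-fold lower and 5 higher (55.3% and 10.6%, median -1.62). Ctsc, cathepsin C, had 0.425 and 0.748 FPKM in the knockout libraries, against 482 and 509 FPKM in the controls. Map1lc3b, the LC3 protein of autophagosomes, had 28.3 and 25.3 FPKM in the knockout libraries, against 1756 and 1858 FPKM in the controls. Mcoln1, a lysosomal calcium channel, had 33 and 19.8 FPKM in the knockout libraries, against 1.54 and 1.18 FPKM in the controls. Of 41 proteasome members, 18 were at least 2-fold lower and 4 higher (43.9% and 9.76%, median -0.80). Of 35 chaperone members, 13 were at least 2-fold lower and 4 higher (37.1% and 11.4%, median -0.45). Ppia, the prolyl isomerase cyclophilin A, had 33.5 and 43.6 FPKM in the knockout libraries, against 762 and 756 FPKM in the controls. Psmd9, a proteasome assembly chaperone, had 112 and 108 FPKM in the knockout libraries, against 5.09 and 9.68 FPKM in the controls.

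Common reference genes had members on both sides, as all tested genes did. Of 19 housekeeping members, 6 were at least 2-fold higher and 7 lower (31.6% and 36.8%, beside 27.7% and 30.3% of all tested genes). The median change was -0.52. Hprt, of purine salvage, had 65.2 and 70.05 FPKM in the knockout libraries, against 828 and 999.6 FPKM in the controls. Ywhaz, a 14-3-3 protein gene, had 158 and 156 FPKM in the knockout libraries, against 29.6 and 26.2 FPKM in the controls. Each knockout library listed 1 housekeeping member at 0, and neither control listed any.

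Imprinting is named in the title of the series, and the genes imprinted by maternal DNA methylation were counted as a list. Of 25 members, 11 were at least 2-fold higher and 8 lower (44% and 32%, beside 27.7% and 30.3% of all tested genes), with a median change of 0.82. With a pseudocount of 5 the higher count was 6. Mest, expressed from the paternal allele in later tissues, had 99 and 74.6 FPKM in the knockout libraries, against 3.82 and 4.66 FPKM in the controls. In zygotes Mest averaged 130.3 FPKM in the knockout and 105 FPKM in the controls. Igf2r, the receptor that clears IGF2, had 0.996 and 1.21 FPKM in the knockout libraries, against 17.5 and 14.5 FPKM in the controls. Impact, a regulator of the GCN2 kinase, had 1.26 and 1.29 FPKM in the knockout libraries, against 15.5 and 24.8 FPKM in the controls. FPKM does not separate the parental alleles. Of 20 piRNA and transposon silencing members, 9 were at least 2-fold higher and 5 lower (45% and 25%). Henmt1, which methylates the ends of piRNAs, had 144 and 141 FPKM in the knockout libraries, against 1.31 and 2.40 FPKM in the controls. Tdrd12, a Tudor protein of the pathway, had 199.6 and 214 FPKM in the knockout libraries, against 5.85 and 4.67 FPKM in the controls. Mov10l1, a helicase needed to make piRNAs, had 0.401 and 0.0981 FPKM in the knockout libraries, against 10.9 and 6.89 FPKM in the controls.

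Genes high in one group and nearly absent from the other were followed over the earlier stages. At 10 FPKM or more in both knockout libraries and below 1 FPKM in both controls were 233 genes. Their medians were 19.5 FPKM in the 48 h knockout and 0.417 FPKM in the 48 h controls. The same genes had medians of 19 FPKM in knockout zygotes and 13.0 FPKM in control zygotes, and of 21.6 FPKM in knockout oocytes and 20.3 FPKM in control oocytes. None of the 233 was below 1 FPKM in all 4 zygote libraries, and 111 (47.6%) were at 10 FPKM or more in all 4. In the 4 oocyte libraries 168 were at 10 FPKM or more throughout. At 10 FPKM or more in both controls and below 1 FPKM in both knockout libraries were 258 genes. Their medians were 0.181 FPKM in the 48 h knockout and 26.0 FPKM in the 48 h controls. They had medians of 0.114 FPKM in knockout zygotes and 0.0774 FPKM in control zygotes, and 207 (80.2%) were below 1 FPKM in all 4 zygote libraries. None was at 10 FPKM or more in all 4 zygote libraries, and 67 were listed at 0 in both 48 h knockout libraries. The 2 sets were chosen on the 48 h values, which are a description, while the zygote and oocyte values were not used to choose them. The same shares were not counted over all members, so no count here is read as a trait of the sets.

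**Figure D5:**
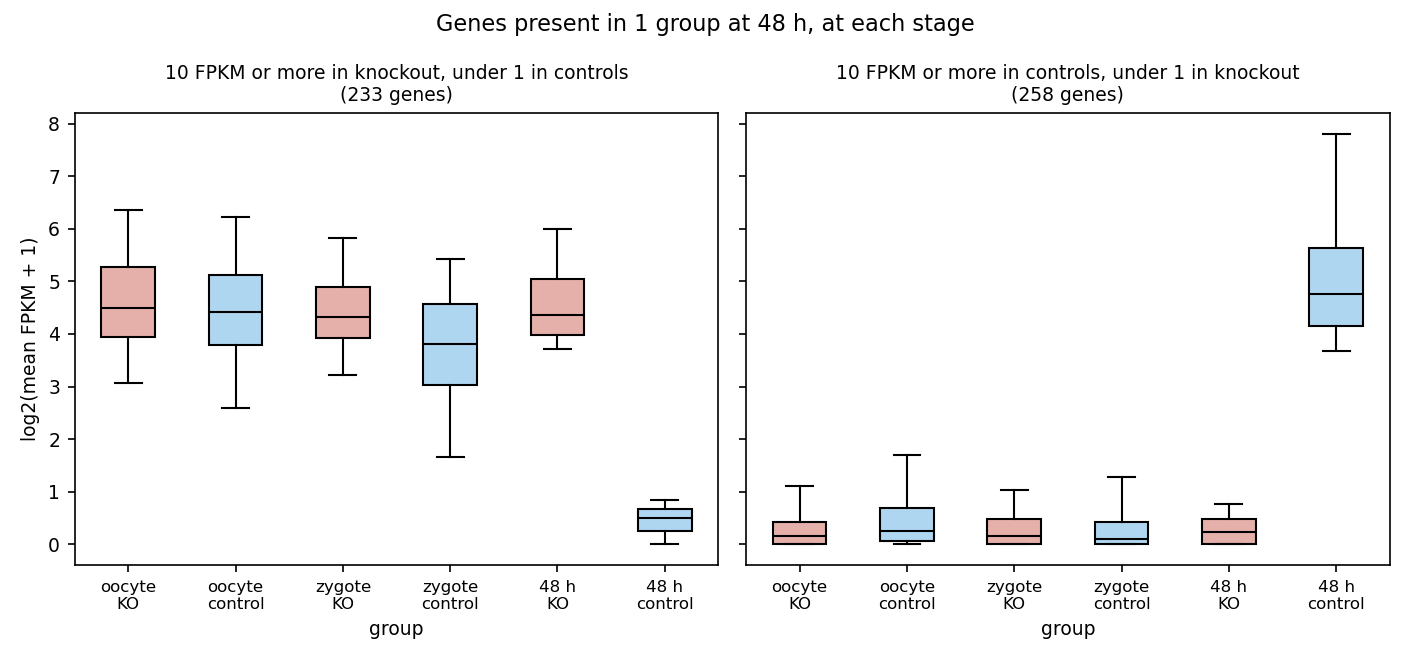
FPKM (log2 of FPKM + 1) of the 233 genes at 10 FPKM or more in the 48 h knockout and under 1 FPKM in the 48 h controls, and of the 258 with the opposite pattern, over oocytes, zygotes and 48 h embryos of each genotype. Boxes span the quartiles with the median, and whiskers the 5th to 95th percentile of the genes. The knockout set is high at every stage but the 48 h control, and the control set is near 0 at every stage but the 48 h control.

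The knockout change at 48 h differed from that in zygotes for most genes. The difference of the 2 changes, tested as an interaction in the same limma fit, was called for 7672 of the 11049 members, beside 66.2% of all tested genes. In zygotes 3507 of the members were called, beside 31.6% of all tested genes. Among the 3362 members at least 2-fold higher at 48 h, the median zygote change was 0.11, and 792 were called higher and 390 lower in zygotes. Among the 3664 at least 2-fold lower at 48 h, the median zygote change was 0.02, and 660 were called higher and 347 lower in zygotes. The differences from zygotes were called for 2893 of the first set and 3108 of the second, beside 66.2% of all tested genes. Both sets were chosen on the 48 h change, which is part of the tested difference, so nothing is read from these counts. Across the members, Spearman's rho of the 48 h change with the zygote change, which share no library, was 0.0059. Some genes changed sign between the stages. Ctsl, cathepsin L, had a relative change of -6.72 at 48 h and 2.85 in zygotes. It had 9.06 and 19.7 FPKM in the 48 h knockout libraries, against 1124 and 1139 FPKM in the controls, and averaged 8.35 FPKM in knockout zygotes and 0.239 FPKM in control zygotes. Lrrc17, a leucine-rich repeat gene, had a relative change of 3.22 at 48 h and -3.05 in zygotes. It had 35.1 and 68.5 FPKM in the 48 h knockout libraries, against 3.41 and 2.59 FPKM in the controls, and averaged 8.76 FPKM in knockout zygotes and 78.6 FPKM in control zygotes. Zp3, by comparison, was higher in the knockout at both times, by 4.03 at 48 h and 3.34 in zygotes, and its difference was not called (limma adjusted p = 0.0515). Cox8a was lower at both times, with relative changes of -2.27 at 48 h and -1.18 in zygotes, and its difference was not called either (limma adjusted p = 0.0501).

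Chromosome and transcript length of the members are given as a description. Over the chromosomes with at least 100 members, between 24.1% (chromosome 17) and 37.1% (chromosome 6) of members were at least 2-fold higher. At least 2-fold lower were between 26.2% (chromosome 6) and 40.1% (chromosome X), with 39.6% on chromosome 11 and 39.4% on chromosome 17. The median longest transcript was 2992.5 nt for members at least 2-fold higher, 2850.0 nt for those lower and 3404 nt for the others. It was 2814 nt for the 233 genes of the knockout set and 2207 nt for the 258 of the control set. No test was made of these values.

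Markers of other cells in or around the embryo were few. Of 18 granulosa and cumulus markers, 5 were members, and their list summed to 22.2 and 25.4 FPKM in the knockout libraries, against 66.2 and 64.2 FPKM in the controls. Cyp19a1, aromatase, had 15.1 and 10.6 FPKM in the knockout libraries, against 0 and 0.218 FPKM in the controls, and Fshr, the FSH receptor, had 4.21 and 10.8 FPKM, against 0 in both controls. Kitl, with 2.06 and 1.87 FPKM against 0.738 and 0.226 FPKM, was also called higher. Amhr2, the receptor for anti-Müllerian hormone, was listed at 0 in both knockout libraries, against 37.1 and 31.5 FPKM in the controls. Gja1 had 0.266 and 0.130 FPKM in the knockout libraries, against 28.0 and 31.9 FPKM in the controls. The list thus held members on both sides, while Hsd3b1, Inhba and Ptx3 were listed at 0 in all 4 libraries. Of 14 sperm and spermatid markers, 5 were members, with sums of 50.9 and 77.1 FPKM in the knockout libraries and 32.5 and 40.2 FPKM in the controls. Odf2 had 30.9 and 33.9 FPKM in the knockout libraries, against 9.43 and 12.9 FPKM in the controls. Prm2 had 3.77 and 18.4 FPKM, against 1.35 and 0 FPKM. Both were called higher, as was Odf1. Tnp1, at 0 in both knockout libraries against 2.47 and 5.29 FPKM in the controls, was called lower, and Ldhc was not called. Prm1 and Acr were listed at 0 in all 4 libraries. Of 8 blood and immune markers, 2 were members, with sums of 4.19 and 2.10 FPKM in the knockout libraries and 168 and 189 FPKM in the controls. Fcgr3, an Fc receptor gene, had 1.51 and 1.15 FPKM in the knockout libraries, against 167 and 181 FPKM in the controls, nearly all of the control sum. Hbb-b1 and Cd3e were listed at 0 in all 4 libraries. The part of these markers in the results was not tested.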

How the data were processed

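The study measured RNA of mouse oocytes and embryos with Smart-seq2 libraries. FPKM values per gene symbol were used as the authors deposited them. Per the submitters' processing notes, the mm9 genome, Cufflinks 2.0.2 and TopHat2 2.0.11 were used, with no step assigned to either tool. Smart-seq2 keeps no strand, so reads of overlapping genes cannot be told apart. No read counts were used, so the depths given are estimates and no counting interval is given.

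Groups come from the sample titles. The values were fitted as log2(FPKM + 1) in limma 3.58.1 (R 4.3.3) over 12 libraries in 6 groups, with a trended prior and Benjamini-Hochberg adjustment over 12199 genes at 1 FPKM or more in at least 2 of the 12, and changes were centred on the median tested gene. The script was tested on simulated data. Members, lists and naming rule were chosen with earlier results of these data known. The rule names Setd2, the 15 largest rises and falls with a mean of 5 FPKM or more and no overlap, up to 3 called genes per list and direction by adjusted p, the 10 most abundant genes per group and the 8 largest differences from zygotes each way. Symbols without a name and olfactory or vomeronasal receptors were passed over, and 1 gene the rule names is not reported here.

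Alternatives were pseudocounts of 0.1 and 5, a filter at 5 FPKM, a filter in the 48 h libraries, no filter, a call that also needs a log2 change of 1, the compared groups or the 8 zygote and 48 h libraries alone, a prior without trend, median-ratio and quantile rescaling, a replicate block and each library left out. Replicate numbers were not used as a pairing in the main fit. The deviations of same-numbered knockout and control libraries had a correlation of 0.00244 over 12199 genes. Library 2 was above library 1 for 87.0% of ribosomal protein members in the knockout pair and 81.8% in the control pair. For two-cell transcript genes these shares were 80.0% and 10%, and over all members they were 55.4% and 48.6%. Whether same-numbered libraries shared a batch was not tested. RefSeq promoter windows were found for 8663 of the 11049 members (78.4%). Shares over members leave the others out, so only single windows are shown and no sets were compared.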

Additional observations from a re-analysis of the deposited data

Results flagged for a closer look

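The knockout change at 48 h was set against that in zygotes by an interaction in the limma fit, and 7672 members had a called difference (48 h change minus zygote change, relative to the median gene, n = 2 libraries per group). The largest positive differences among the genes named by the rule were Tceal8 (7.26), Zar1 (6.43), Bcl2l10 (6.42), Lrrc17 (6.33), Oas1e (6.29), Obox2 (6.27), Neil3 (6.24) and Rfpl4 (6.24). Bcl2l10 averaged 3655 FPKM in knockout zygotes and 6064 FPKM in control zygotes, and it had 3759 and 2886 FPKM in the 48 h knockout libraries, against 58 and 42.2 FPKM in the 48 h controls. Tceal8, an elongation factor A-like gene, had 154 and 84.9 FPKM in the 48 h knockout libraries, against 2.02 and 2.19 FPKM in the controls, with 3.88 and 30.5 FPKM in knockout zygotes, against 74.1 and 56.3 FPKM in control zygotes.

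On the negative side they were those of Crxos1 (-10.67), Spic (-9.98), Mt1 (-9.61), Nme2 (-9.53), Ctsl (-9.52), Vimp (-9.46), Prps1 (-9.43) and Obox6 (-9.32). Vimp, which encodes a selenoprotein of the endoplasmic reticulum, had 2.15 and 9.93 FPKM in the 48 h knockout libraries, against 1416 and 1538 FPKM in the controls. Setd2 also differed between the stages, by -2.43 (limma adjusted p = 0.000406), with knockout levels of 1.30 to 1.74 FPKM at both times, against control levels of 8.85 to 12.1 FPKM in zygotes and 43.0 to 53.2 FPKM at 48 h.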

How the results depend on the processing

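All 7 results that answer the comparisons kept their direction and stayed within 1.5 times their value in every alternative run. Members called numbered 7657 to 8031 with 1 library left out. The replicate block, used although no pairing is known, gave 8623 called members and a Setd2 change of -4.68. It gave 3359 members at least 2-fold higher and 3692 at least 2-fold lower, and Setd2 stayed called. Members at least 2-fold higher ranged from 2287 (pseudocount 5) to 3770 (pseudocount 0.1), and those at least 2-fold lower from 2476 (pseudocount 5) to 4102 (median-ratio rescaling). The Setd2 change ranged from -3.18 (pseudocount 5) to -5.48 (pseudocount 0.1). Of 3240 values for 216 named genes, 3222 kept direction and call, 16 lost the call, 2 gained it and 0 reversed. Trim28 lost it without a filter, with the 8 zygote and 48 h libraries alone and in 3 of the 4 fits with 1 library left out. Dgcr8 and Men1 lost theirs only in such fits, and Rrp1b, Noc4l, Glyr1, Kdm2b and Ubb lost theirs after median-ratio rescaling. Of 990 list counts, 974 stayed within 1.5 times. With a pseudocount of 5, the members at least 2-fold lower were 23 in the cell cycle, 12 in the remodelling, 8 in the RNA decay and 3 in the maternal effect list, and those higher were 6 in the imprinted and 5 in the pluripotency list. The piRNA list then had 1 lower member, and 3 with a filter at 5 FPKM. After median-ratio rescaling, 5 nuclear pore members were higher. The cause of these shifts was not tested.

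Depth limits low genes: a value of about 0.1 FPKM is near a single fragment in a transcript of 2000 nt. With 2 libraries per group and 1 stage per genotype, no value separates genotype from stage.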

Other observations

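Several of the most abundant transcripts were not described above. Zbed3, a gene linked to the subcortical maternal complex, had 6662 and 6827 FPKM in the knockout libraries, against 219 and 178 FPKM in the controls. Tcl1, an AKT coactivator of early blastomeres, had 5038 and 4228 FPKM in the knockout libraries, against 187 and 137 FPKM in the controls. Spin1, a histone reader that is a maternal transcript, had 2834 and 2623 FPKM in the knockout libraries, against 425 and 369 FPKM in the controls. All 3 also had a called difference between the 48 h and the zygote change. On the control side, Znhit3, a small zinc finger protein gene, had 66.9 and 69.6 FPKM in the knockout libraries, against 1906 and 1907 FPKM in the controls. Alppl2, an alkaline phosphatase, had 1.62 and 0.791 FPKM in the knockout libraries, against 1039 and 963 FPKM in the controls. Tfrc, the transferrin receptor, had 1.72 and 2.76 FPKM in the knockout libraries, against 96.2 and 100.9 FPKM in the controls. Ddit3, the stress factor CHOP, had 78.3 and 139.8 FPKM in the knockout libraries, against 25.6 and 18.4 FPKM in the controls, and was higher in the knockout in zygotes as well, by 1.74 log2 units (limma adjusted p = 0.00352).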
